A study of Mus musculus with 12 samples.

Results

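The response of microglial cells to high glucose in the presence of CD200Fc was measured by comparing 3 RNA sequencing libraries of cells in high glucose with CD200Fc (HG+CD200Fc) with 3 libraries of cells in normal glucose with CD200Fc (NG+CD200Fc). These are 6 of the 12 libraries of the study, and both groups carry the same agent, CD200Fc at 50 ng/mL, so by design the pair differs in glucose only. The other 6 libraries, 3 in high glucose without CD200Fc (HG) and 3 in normal glucose without it (NG), entered the same model and are shown only to set the response beside that of cells without CD200Fc. The source label gives BV2, an immortalised mouse microglial line, so every library would come from this one line. The treatment protocol of the same labels instead describes dissected mouse retinas and sorting of GFP-positive viable cells, and the source label was followed. The sources used here give neither the glucose concentrations nor the treatment times, and neither group was an Fc-only or an osmotic control. Nothing in the labels states whether the replicates were grown apart, and the p-values therefore reflect only the spread among these libraries, possibly technical.

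CD200 is a surface protein of neurons, endothelium and other cells that binds the inhibitory receptor CD200R1 on microglia and macrophages. The receptor recruits Dok adaptor proteins and restrains Ras and ERK signalling, and CD200Fc, the CD200 ectodomain joined to an antibody Fc part, is used as its soluble agonist. High glucose is sensed inside cells by the transcription factors of the Mondo family with their partner Mlx, which read glucose 6-phosphate and switch on Txnip and Arrdc4, arrestin-like proteins that limit glucose uptake.

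Totals ran from 21454087 to 31905649 counts per library. NG+CD200Fc replicate 3 was the deepest and HG+CD200Fc replicate 2 the shallowest of all 12. Replicates of a group differed by more than counting noise, as the chi-square over genes was 3.66 to 40.2 times its degrees of freedom. HG replicate 2, which does not enter the comparison, stood apart with 1.49% ribosomal RNA counts. The 2 groups compared also differed without overlap in several signs of RNA composition. Ribosomal RNA counts made up 0.0563% to 0.0599% in NG+CD200Fc and 0.0981% to 0.119% in HG+CD200Fc, protein-coding genes 93.15% to 93.53% and 91.6% to 92.56%, and the most abundant feature, CT010467.2, 2.83% to 3.35% and 3.83% to 4.96%. The same 3 measures did not overlap between NG and HG either, and their part in the results was not tested. All 20 listed markers of myeloid cells and microglia passed the filter on low counts, with a summed level, in CPM (a count per gene scaled to the TMM-adjusted library total), of 8471 to 8914 in NG+CD200Fc and 8436 to 8741 in HG+CD200Fc. Csf1r, the receptor for the microglial growth factor, stood at 896 ± 22.8 CPM (mean ± SD, n = 3) in NG+CD200Fc, whereas P2ry12 and Cx3cr1, markers of resting microglia in tissue, were at 1.75 ± 0.221 and 2.27 ± 0.376 CPM. Photoreceptor markers summed to 34.4 to 48.2 CPM over the 6 libraries, most of it Pde6b, with Crx, Gngt1 and Guca1a at 0 counts. Retinal neuron markers summed to 17.02 to 23.1 CPM, mostly Prkca, and Sncg, Grm6 and Calb1 were at 0 counts. Listed markers of Müller glia and astrocytes, most of whose signal is Vim and Glul, summed to 2283 to 2384 CPM in NG+CD200Fc and 1930 to 2108 in HG+CD200Fc, with Sox9 at 0 counts. Endothelial and mural markers, mainly Flt1 and Vwf, went the other way, from 408 to 456 CPM to 477 to 539.6 CPM. The part of other cells in the results was not tested.

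With CD200Fc present, high glucose moved many genes by small amounts. Between HG+CD200Fc and NG+CD200Fc, 1593 of 19182 tested genes (8.30%) had an adjusted p under 0.05. Of these, 892 were higher in HG+CD200Fc (4.65% of genes tested) and 701 lower (3.65%). The median absolute log2 fold change of the genes that passed was 0.31, and 40 genes rose and 15 fell by 2-fold or more. For comparison, the libraries of the groups did not overlap for 27.2% of the genes tested.

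The number of genes called leaned on single libraries. Without NG+CD200Fc replicate 3 the count was 344, and without HG+CD200Fc replicate 2 it was 277. Leaving out NG+CD200Fc replicate 1 gave 665 and leaving out HG+CD200Fc replicate 3 gave 646. Without both NG+CD200Fc replicate 3 and HG+CD200Fc replicate 2, 10 genes passed: Pmp22, Igf1, Cd74, Siglec1, Uba7, Znfx1, Mmp12, H1f4, Hipk2 and CT010467.2, a feature annotated as a pseudogene that holds more counts than any other in these libraries. A core of 216 genes passed, with the same sign, whichever of the 6 CD200Fc libraries was left out (1.13% of genes tested). Of these, 160 were higher in HG+CD200Fc (0.834%) and 56 lower (0.292%). Counts over gene lists moved with the total. For some lists, but not all, the members in the core or the median without both of these libraries are also given. Without both, nearly no list member passed, so list counts given alone carry this limit. The genes described first below belong to this core unless stated, and those outside the rule for named genes were chosen after their values were seen.

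**Figure D1:**
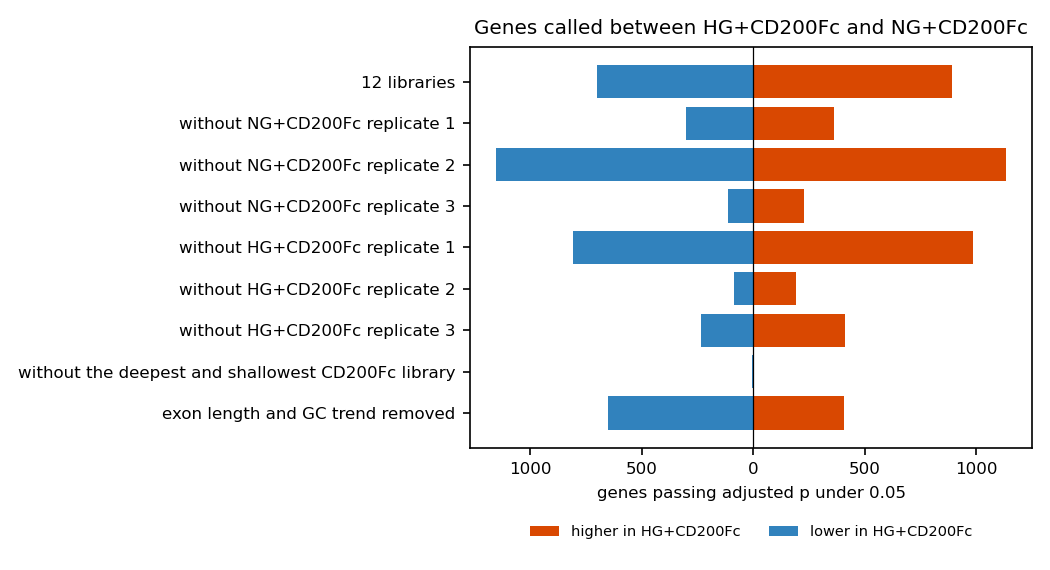
Number of genes passing an adjusted p of 0.05 between HG+CD200Fc and NG+CD200Fc (x axis; lower to the left, higher to the right) with all 12 libraries, with each CD200Fc library left out, with the deepest and the shallowest CD200Fc library both left out, and with the trend over exon length and GC content removed (y axis). The total falls from 1593 to 277 without HG+CD200Fc replicate 2 and to 10 without both.

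Txnip, Arrdc4 and Mlxip, genes of glucose sensing, rose. Txnip (ENSMUSG00000038393, chromosome 3, 96557957 to 96561883, plus strand) was at 95.7, 95.9 and 103 CPM in NG+CD200Fc and 128, 125 and 116 CPM in HG+CD200Fc. All 3 high glucose libraries lay above all 3 normal glucose libraries, with a log2 fold change of 0.33 (adjusted p = 0.00269, SE 0.062). Without CD200Fc the log2 fold change of Txnip was 0.84, and the difference between the responses was -0.52 (adjusted p = 0.000290, SE 0.087). Arrdc4 (chromosome 7, 68736995 to 68749241, minus strand) was at 9.91, 12.3 and 12.1 CPM against 14.9, 15.99 and 13.4 CPM. The groups did not overlap and the log2 fold change was 0.37 (adjusted p = 0.0484, SE 0.12), which is not in the core. Mlxip, which encodes MondoA itself, went from 99.4, 109.7 and 89.2 to 121, 140.3 and 140.3 CPM, again without overlap and outside the core, with a log2 fold change of 0.43 (adjusted p = 0.00642, SE 0.087). Of the 7 tested genes on the list of Mondo family members and targets, 3 rose and 0 fell (4.65% of all genes were higher). Their median log2 fold change was 0.26, beside -6e-04 over all genes tested. Txnip was the list's 1 member in the core, and the median was 0.04 without both named libraries.

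The promoter of Txnip is shown because it carries the kind of element through which Mondo proteins act. The window runs from 250 bases before to 50 bases after the RefSeq start site (GRCm38.p6, chr3:96557707-96558006, plus strand), 5′ to 3′. Capitals mark the match to the E-box-like unit CACGNG followed, after 5 bases of any kind, by a second CACGNG, searched on both strands.
Txnip: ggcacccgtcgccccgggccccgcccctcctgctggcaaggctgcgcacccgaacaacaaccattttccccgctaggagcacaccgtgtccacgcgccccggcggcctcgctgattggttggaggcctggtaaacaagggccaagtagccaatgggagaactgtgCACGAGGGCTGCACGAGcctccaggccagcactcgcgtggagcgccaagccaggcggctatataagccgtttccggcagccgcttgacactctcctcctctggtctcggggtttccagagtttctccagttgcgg
The match starts 85 bases before the start site. Of 32851 promoter windows of the same length in the RefSeq table, 16 (0.0487%) held such a match. Among the 11070 tested genes with a window, 14 (0.126%) held it. Of the 5 tested list members with a window, Txnip alone held it. A match describes letters only and is not a measured binding site.

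Cd74, Nos2 and Mmp9 rose, each by less than in cells without CD200Fc. Cd74, which chaperones MHC class II as its invariant chain (chromosome 18, 60803848 to 60812652, plus strand), was at 19.1, 18.2 and 20 CPM in NG+CD200Fc and 31.4, 28.6 and 31.8 CPM in HG+CD200Fc. The groups were far apart, and the log2 fold change was 0.68 (adjusted p = 0.000197, SE 0.083). Nos2, the inducible nitric oxide synthase (chromosome 11, 78920787 to 78960254, plus strand), was at 72.6, 59.98 and 58.1 CPM against 99.8, 101 and 103 CPM, with every high glucose library above every normal glucose library and a log2 fold change of 0.67 (adjusted p = 0.00255, SE 0.10). Mmp9, a secreted gelatinase, went from 19.8, 19.6 and 20.1 to 25.2, 28.4 and 26.4 CPM, a log2 fold change of 0.42 (adjusted p = 0.00284, SE 0.081). In cells without CD200Fc the log2 fold changes were 1.52 for Cd74, 1.60 for Nos2 and 1.56 for Mmp9. The tests of the difference gave -0.84 (adjusted p = 2.85e-05, SE 0.12), -0.93 (adjusted p = 0.000909, SE 0.14) and -1.14 (adjusted p = 1.92e-07, SE 0.11), so each of these genes rose less in the presence of CD200Fc. Their lists held calls in both directions under CD200Fc, where 8.30% of all genes passed. Of 14 tested genes of MHC class II and costimulation 1 rose and 1 fell, of 20 of the oxidative burst 2 rose and 1 fell, and of 16 metalloproteinases 1 rose and 2 fell.

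Siglec1, C3, Ikbke, Helz2 and Znfx1 also rose, and by less than without CD200Fc. Siglec1, a sialic acid receptor of activated macrophages (chromosome 2, 131069220 to 131086765, minus strand), was at 601, 656 and 586 CPM against 777, 834 and 815 CPM, with no overlap and a log2 fold change of 0.40 (adjusted p = 0.000197, SE 0.052). C3, the central complement component, rose from 221 ± 4.35 to 269 ± 7.04 CPM (mean ± SD, n = 3; log2 fold change 0.28, adjusted p = 0.00255). Ikbke, a kinase of the interferon induction pathway, rose by 0.34 on the log2 scale (adjusted p = 0.00272), Helz2, a helicase, by 0.32 (0.00147) and Znfx1, an RNA sensor, by 0.36 (0.000870). The tests of the difference from the response without CD200Fc gave log2 values of -0.30 (adjusted p = 0.00976) for Siglec1, -0.64 (1.67e-06) for C3, -0.58 (0.000110) for Ikbke, -0.68 (6.38e-07) for Helz2 and -0.57 (7.59e-06) for Znfx1. The difference for Siglec1 did not pass without NG replicate 1 (adjusted p = 0.0535), and the rise of Helz2 did not pass with the trend over transcript length and GC content removed (0.14, adjusted p = 0.0539).

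Some regulators of NF-kB, a transcription factor of inflammation, also rose. Of the 25 tested subunits and inhibitors, 4 rose and 0 fell under CD200Fc (4.65% and 3.65% of all genes tested). Without CD200Fc 10 rose and 2 fell (11.7% and 12.9% of all genes). The list's median log2 fold change under CD200Fc was 0.07. It was 0.0011 with the trend over transcript length and GC content removed, and 0.04 without NG+CD200Fc replicate 3 and HG+CD200Fc replicate 2. The core held 2 members, and 0 were called without both libraries. Bcl3, a nuclear IkB protein, was at 47.5, 53.5 and 41.3 CPM against 58.9, 67.2 and 70.03 CPM, which do not overlap, with a log2 fold change of 0.46 (adjusted p = 0.00178, SE 0.079). Tnip1, an inhibitor of NF-kB signalling, rose by 0.29 (adjusted p = 0.00377). The subunit genes Nfkb1 and Nfkb2, outside the core, rose by 0.27 (0.00518) and 0.26 (0.00843). Zc3h12a, an RNase that degrades inflammatory messages, rose by 0.38 (0.00147). The differences between the responses with and without CD200Fc were -0.02 (SE 0.11) for Bcl3, -0.09 (0.081) for Tnip1 and 0.01 (0.088) for Zc3h12a, and none passed (adjusted p = 0.947, 0.624 and 0.968).

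Other genes of the core rose under CD200Fc and did not pass without it. Kdm6b, a demethylase of histone H3 lysine 27 that acts in macrophage activation (chromosome 11, 69398508 to 69413675, minus strand), was at 24.2, 25.1 and 19.2 CPM against 28.7, 37.4 and 33.5 CPM, with no overlap and a log2 fold change of 0.54 (adjusted p = 0.00320, SE 0.10). Its log2 fold change without CD200Fc was -0.01, and the difference passed (0.56, adjusted p = 0.0206, SE 0.15), but not without NG replicate 2, NG+CD200Fc replicate 3 or HG+CD200Fc replicate 2. Crebbp, a histone acetyltransferase, went from 223, 248 and 184 to 279, 334 and 322 CPM, a log2 fold change of 0.51 (adjusted p = 0.00642, SE 0.096) against 0.03 without CD200Fc, with a difference of 0.48 (adjusted p = 0.0453, SE 0.14). That difference no longer passed with upper quartile scaling (adjusted p = 0.104), with a stricter filter (0.0573), or when any one of NG replicates 2 and 3, HG replicates 1 and 2, NG+CD200Fc replicate 1 and HG+CD200Fc replicates 2 and 3 was left out. For Hipk2, a nuclear kinase (318, 344 and 258 CPM against 402, 495 and 469 CPM, log2 fold change 0.57, adjusted p = 0.00641, SE 0.10), the difference from the response without CD200Fc did not pass (0.32, adjusted p = 0.238, SE 0.14). The same was true of Nfatc2, a calcium-regulated transcription factor, at 0.56 (adjusted p = 0.00334) with a difference of 0.37 (0.128), and of Tgfb1, the anti-inflammatory cytokine, at 0.36 (0.00272) with a difference of 0.23 (0.162). In all 5 genes NG+CD200Fc replicate 3 was the lowest of the 6 libraries.

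The chemokines Ccl7 and Ccl2 and the macrophage protease Mmp12 fell. Mmp12, the macrophage elastase (chromosome 9, 7344381 to 7369499, plus strand), was at 22.6, 19.6 and 19.7 CPM in NG+CD200Fc and 13.7, 14.01 and 12.2 CPM in HG+CD200Fc. The groups did not overlap, and the log2 fold change was -0.63 (adjusted p = 0.00129, SE 0.10). Ccl7, a chemokine that draws monocytes (chromosome 11, 82045712 to 82047525, plus strand), was at 16.1, 14.2 and 14.5 CPM against 10.8, 9.56 and 9.21 CPM, every high glucose library below every normal glucose one, with a log2 fold change of -0.60 (adjusted p = 0.00393, SE 0.12). Its neighbour Ccl2, the main monocyte chemoattractant, went from 64.9, 67.98 and 63.7 to 50.98, 51.3 and 50.97 CPM, a log2 fold change of -0.36 (adjusted p = 0.00240, SE 0.065). Without CD200Fc the log2 fold changes were -0.03 for Mmp12, 0.20 for Ccl7 and -0.03 for Ccl2, and the differences passed for all 3, at -0.60 (adjusted p = 0.00753, SE 0.14), -0.80 (adjusted p = 0.00246, SE 0.17) and -0.32 (adjusted p = 0.0281, SE 0.092). For Ccl2 the difference did not pass when any one of NG replicates 2 and 3, HG replicate 1, NG+CD200Fc replicates 1 and 2 and the 3 HG+CD200Fc replicates was left out. With the trend over transcript length and GC content removed, neither its fall under CD200Fc (-0.20, adjusted p = 0.0694) nor its difference (-0.25, adjusted p = 0.0931) passed. Of 25 tested cytokines and chemokines, 4 fell, the other two being Ccl4 (-0.25) and Ccl12 (-0.52), and Ccl5 rose (0.42). Over all genes tested, 3.65% were lower and 4.65% higher. The list had a median log2 fold change of -0.16, and of -0.05 without NG+CD200Fc replicate 3 and HG+CD200Fc replicate 2.

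Igf1, Id1 and Id2 fell as well. Igf1, a trophic factor of microglia, was at 137, 131 and 129 CPM against 107, 111 and 105 CPM, without overlap, with a log2 fold change of -0.30 (adjusted p = 0.00231, SE 0.053). Id1, an inhibitor of basic helix-loop-helix factors and a target of BMP signalling, went from 36.9, 39.7 and 41.3 to 27.9, 30.4 and 28.4 CPM, a log2 fold change of -0.45 (adjusted p = 0.00272, SE 0.084). Both fell more without CD200Fc, with log2 fold changes of -0.60 and -1.51, and the differences passed, at 0.31 (adjusted p = 0.0106, SE 0.076) and 1.07 (adjusted p = 1.34e-06, SE 0.12). Id2, its paralog, behaved otherwise: it went from 52.98, 52.3 and 63.5 to 45.04, 37.7 and 39.5 CPM under CD200Fc (log2 fold change -0.47, adjusted p = 0.00253, SE 0.084), against -0.01 without it, with a difference of -0.46 (adjusted p = 0.0160, SE 0.12), which did not pass when any one of NG replicates 2 and 3, HG replicate 1, NG+CD200Fc replicate 3 and HG+CD200Fc replicates 2 and 3 was left out. Id1 and Id2 were the 2 of 22 tested TGF-beta and BMP pathway genes that fell, and 4 rose (Tgfb1, Ski, Bmpr2 and Eng), with a median log2 fold change of 0.08. The shares over all genes tested were 3.65% lower and 4.65% higher. Tmsb4x, an actin-binding peptide, and Cd53, a leukocyte tetraspanin, fell, with log2 fold changes of -0.46 (adjusted p = 0.00489) and -0.39 (0.00444) and differences from the response without CD200Fc of -0.57 (0.00577) and -0.54 (0.00273).

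A set of 61 genes passed in both comparisons with opposite signs. Of these, 28 rose with glucose in cells without CD200Fc and fell in its presence, and 33 did the reverse. The comparisons share no library. Choosing genes by opposite signs leaves the test of the difference little room (61 of 61 passed it), so its values for these genes are a description. The core holds 9 of the 61: Ms4a7, B2m, Cfp, Cd84 and Lilr4b among those that fell under CD200Fc, and Flt1, Slc7a5, Sfpq and Nptxr among those that rose. Without NG+CD200Fc replicate 3 and HG+CD200Fc replicate 2, none of the 61 passed under CD200Fc. With the trend over transcript length and GC content removed, many no longer passed there, among them B2m, C1qb, Fcgr4, Cad and Fasn. Of the 9 in the core, all but B2m still did.

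B2m, the light chain of MHC class I (ENSMUSG00000060802, chromosome 2, 122147686 to 122153083, plus strand), was at 434, 407 and 453 CPM in NG+CD200Fc and 374, 334 and 321 CPM in HG+CD200Fc, a log2 fold change of -0.33 (adjusted p = 0.00231, SE 0.060). In cells without CD200Fc it stood at 439, 411 and 444 CPM in NG and 568, 546 and 509 CPM in HG, and the change there was 0.33 (adjusted p = 0.000182, SE 0.060). The groups overlapped in neither comparison, and the highest HG+CD200Fc library lay below the lowest library of each other group. With the trend over transcript length and GC content removed, the change of B2m under CD200Fc did not pass (-0.10, adjusted p = 0.202). Ms4a7, a membrane protein of macrophages, was at 73.1, 67.3 and 69.9 CPM against 58.5, 50.5 and 52.02 CPM, without overlap (log2 fold change -0.38, adjusted p = 0.00147, SE 0.064). Without the agent it was at 75.5, 79.02 and 71.1 CPM in NG against 114, 116 and 111 CPM in HG, a change of 0.59 (adjusted p = 7.40e-08, SE 0.063). Its difference, -0.98 (adjusted p = 5.98e-08, SE 0.089), was among the 10 with the smallest p of that test among genes of at least 1 CPM.

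Properdin (Cfp), which stabilises the alternative complement convertase, was at 122, 121 and 143 CPM against 104, 99.8 and 101 CPM under CD200Fc, with no overlap (log2 fold change -0.34, adjusted p = 0.00274), and had a log2 fold change of 0.43 without it. Cd84, an adhesion receptor of the SLAM family, and Lilr4b, an inhibitory receptor, had log2 fold changes of -0.33 and -0.36 under CD200Fc and of 0.45 and 0.38 without it. Among members outside the core, the complement subunits C1qb (-0.31, against 1.07 without CD200Fc) and C1qc (-0.36 against 0.37) and the Fc receptors Fcgr4 (-0.28 against 0.48) and Fcgr2b (-0.32 against 0.56) did likewise. The C1qb libraries overlapped under CD200Fc, where the lowest NG+CD200Fc library lay below the highest HG+CD200Fc library (24.7, 22.3 and 28.4 CPM against 22.8, 19.7 and 18.1 CPM). Of 20 tested complement genes, 1 rose (C3) and 3 fell (Cfp, C1qb and C1qc) under CD200Fc, against 10 and 1 without it. The shares over all genes tested were 4.65% higher and 3.65% lower under CD200Fc, and 11.7% and 12.9% without it.

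In the other direction, Flt1, a VEGF receptor (chromosome 5, 147561604 to 147726011, minus strand), was at 241, 254 and 216 CPM in NG+CD200Fc and 275, 319 and 308 CPM in HG+CD200Fc, without overlap (log2 fold change 0.34, adjusted p = 0.00232, SE 0.062). In NG it was at 251, 228 and 239.8 CPM and in HG at 161, 159 and 167 CPM (log2 fold change -0.56, adjusted p = 1.97e-07, SE 0.063). Slc7a5, a transporter of large neutral amino acids, rose under CD200Fc from 240.2, 262 and 227 to 284, 312 and 303 CPM (log2 fold change 0.30) and fell without it (-0.40). Sfpq, a splicing factor, and Nptxr, a pentraxin receptor, had log2 fold changes of 0.32 and 0.40 against -0.25 and -0.20. Outside the core, Cad, the first enzyme of pyrimidine synthesis (0.28 against -0.33), Fasn, fatty acid synthase (0.24 against -0.21), and Kcna3, a potassium channel of activated microglia (1.02 against -0.76), also changed sign.

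**Figure D2:**
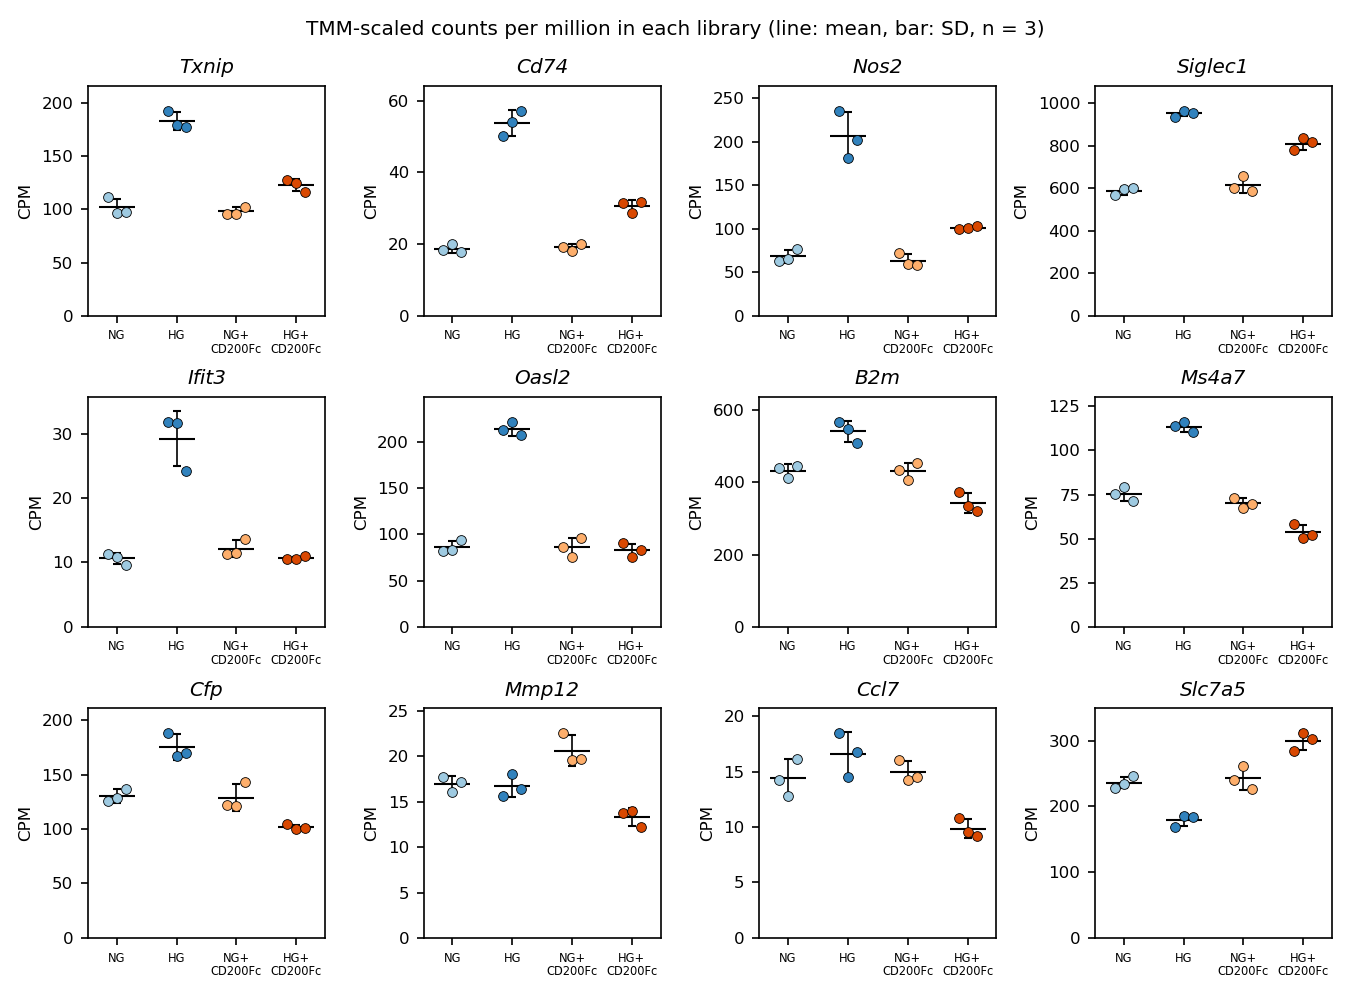
Level in CPM (y axis, linear from 0) of 12 genes in each library of the 4 groups (x axis). Points are libraries, lines are means and bars are SD over 3 libraries. B2m, Ms4a7 and Cfp are above NG in HG and below NG+CD200Fc in HG+CD200Fc, Slc7a5 does the reverse, and Ifit3 and Oasl2 are raised in HG only.

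Most interferon-induced genes, which rose with glucose in cells without CD200Fc, did not pass in its presence. These genes are switched on by type I interferon, and many block viral replication. Of 54 tested effectors, 4 rose and 0 fell under CD200Fc (4.65% of all genes were higher), with a median log2 fold change of -0.06. Without CD200Fc 48 rose and 1 fell (11.7% of all genes were higher and 12.9% lower in that comparison, 24.6% in all), with a median of 0.79. The test of the difference passed for 42 of the 54, all with the smaller response under CD200Fc (7.20% of all genes passed that test, 3.58% with a negative and 3.62% with a positive difference). The median under CD200Fc changed sign, to 0.09 at most, without NG+CD200Fc replicate 3, without HG+CD200Fc replicate 2 and without both.

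Ifit3, which restrains translation of viral RNA and has a close copy, Ifit3b, with which reads may be shared (chromosome 19, 34583531 to 34588731, plus strand), was at 11.3, 11.4 and 13.7 CPM in NG+CD200Fc and 10.6, 10.6 and 10.95 CPM in HG+CD200Fc. The groups did not overlap, but the log2 fold change of -0.19 (adjusted p = 0.372, SE 0.12) did not pass. In cells without CD200Fc, Ifit3 was at 11.4, 10.9 and 9.63 CPM in NG and 31.9, 31.6 and 24.2 CPM in HG, and the difference between the responses was -1.65 (adjusted p = 2.03e-07, SE 0.17). Oasl2, a member of the oligoadenylate synthetase family, was at 86.7, 75.8 and 96.3 CPM against 90.2, 75.5 and 82.8 CPM under CD200Fc, which overlap, and at 82.00, 82.6 and 93.9 CPM against 212, 222 and 208 CPM without it (difference -1.37, adjusted p = 3.28e-08, SE 0.11). Irf7, the factor that amplifies interferon production, was at 68.1, 66.4 and 77.4 CPM against 76.1, 71.6 and 73.7 CPM under CD200Fc, again overlapping, with a difference of -1.12 (adjusted p = 8.44e-09, SE 0.090). The 4 members that rose under CD200Fc were Helz2, Uba7 (0.31, adjusted p = 0.00900), Oas2 (0.19, 0.0487) and Trim25 (0.19, 0.0149), of which Helz2 is in the core.

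The promoters of Ifit3 and B2m are shown because both carry the core of the interferon-stimulated response element, while B2m fell under CD200Fc and Ifit3 did not pass. Windows and strands are as for Txnip (GRCm38.p6; Ifit3 at chr19:34583279-34583578 and B2m at chr2:122147437-122147736, both plus strand). Capitals mark matches, on either strand, to GAAA followed after 2 bases of any kind by a second GAAA.
Ifit3: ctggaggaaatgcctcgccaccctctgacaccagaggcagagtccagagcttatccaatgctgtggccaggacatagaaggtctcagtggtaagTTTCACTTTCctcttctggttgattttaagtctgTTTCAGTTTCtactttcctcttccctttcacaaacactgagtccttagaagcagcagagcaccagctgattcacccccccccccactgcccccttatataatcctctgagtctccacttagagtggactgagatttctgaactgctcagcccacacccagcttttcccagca
B2m: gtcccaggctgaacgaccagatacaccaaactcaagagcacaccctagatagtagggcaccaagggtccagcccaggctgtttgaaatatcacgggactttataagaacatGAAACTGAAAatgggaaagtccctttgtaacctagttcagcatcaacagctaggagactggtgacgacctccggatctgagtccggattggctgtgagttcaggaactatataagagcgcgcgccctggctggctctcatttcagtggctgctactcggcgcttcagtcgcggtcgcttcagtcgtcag
The match in B2m starts 139 bases before the start site, and those in Ifit3 start 156 and 122 bases before it on the minus strand. Of all 32851 windows, 1131 (3.44%) held a match, and of the 11070 tested genes with a window, 424 (3.83%) did. Of the 43 tested interferon-induced effectors with a window, 22 (51.2%) held one, as did 5 of 19 genes of MHC class I and peptide loading (26.3%).

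Related immune lists also had fewer calls under CD200Fc than without it, where all genes tested went from 24.6% to 8.30%. Under CD200Fc 0 of 16, 5 of 23 and 3 of 24 passed in the lists below, the first under 8.30% and the others above it. Without CD200Fc 11.7% of all genes were higher and 12.9% lower. None of the 16 tested guanylate-binding proteins and immunity-related GTPases, which attack vacuoles of pathogens, passed edgeR's test under CD200Fc, where 1 had an unadjusted p under 0.05 and DESeq2 called 0 and limma voom 0. Without CD200Fc 12 were higher, and 9 passed the test of the difference. Of 23 genes of MHC class I and peptide loading, 2 rose (H2-T24, 0.37, and Nlrc5, 0.28) and 3 fell (B2m, Erap1, -0.28, and Pdia3, -0.17), against 15 and 0 without CD200Fc. Of 24 sensors of RNA and DNA, 3 rose, namely Ikbke, Adar (0.20) and Tlr9 (0.45), against 15 higher and 1 lower without CD200Fc. Of the 10 genes whose mean reached 1 CPM and that had the smallest p for the difference, 9 did not pass under CD200Fc. They include Marco, a scavenger receptor (311, 274 and 310.4 CPM against 315, 332 and 300.2 CPM, overlapping, difference -1.18, adjusted p = 5.34e-10, SE 0.080), and Mpeg1, a pore-forming protein of phagosomes (45.6, 44.2 and 54.97 CPM against 49.1, 51.9 and 45.9 CPM, overlapping, difference -1.43, adjusted p = 1.59e-09, SE 0.10).

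**Figure D3:**
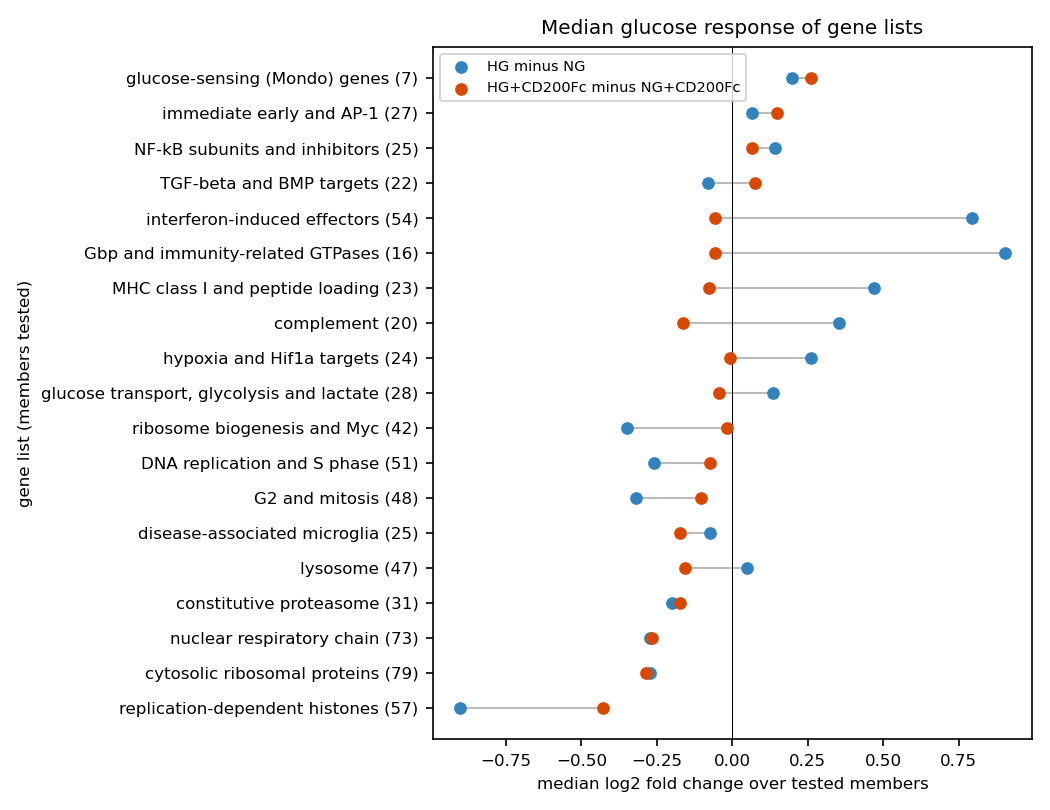
Median log2 fold change (x axis) over the tested members of 19 gene lists (y axis) with CD200Fc (orange) and without it (blue). Interferon-induced effectors lie at -0.06 with CD200Fc against 0.79 without it, while ribosomal protein and respiratory chain genes lie at nearly the same values in both.

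Lists of metabolism and growth had fewer calls with CD200Fc than without it, as did all genes tested (8.30% against 24.6%). By direction, 4.65% of all genes tested were higher and 3.65% lower with CD200Fc, against 11.7% and 12.9% without it. Of 28 genes of glucose transport, glycolysis and lactate export, 0 rose and 1 fell under CD200Fc (Tpi1, triose phosphate isomerase, -0.21), against 11 and 1 without it, and the difference passed for 10. Slc16a3, the lactate exporter, was at 14.5, 15.1 and 15.2 CPM against 12.3, 11.4 and 13.7 CPM under CD200Fc. The groups did not overlap, but the log2 fold change of -0.27 (adjusted p = 0.124, SE 0.11) did not pass, whereas its difference from the response without CD200Fc did (-1.57, adjusted p = 8.96e-08, SE 0.15). None of 24 hypoxia and Hif1a targets passed edgeR's test under CD200Fc (6 had an unadjusted p under 0.05, and DESeq2 called 1 and limma voom 1), against 11 higher and 1 lower without it, and the difference passed for 6. In the opposite sense, 34 of 42 genes of ribosome biogenesis and Myc activity fell without CD200Fc, while 2 rose (Polr1b, 0.18, and Pprc1, 0.30) and 4 fell (Npm1, -0.25, Nop58, -0.22, Eif4a1, -0.23, and Eif4e, -0.25) in its presence, and the difference passed for 23, each with the higher value under CD200Fc. For genes of G2 and mitosis the counts were 42 of 48 lower without CD200Fc and, with it, 2 higher (Foxm1, 0.30, and Cdc25b, 0.17) and 4 lower (Ccnb2, -0.23, Cdk1, -0.27, Bub1, -0.26, and Nuf2, -0.30). The difference passed for 13. For genes of DNA replication they were 29 of 51 lower without and, with CD200Fc, 1 higher (Cdt1, 0.26) and 5 lower (among them Pcna, -0.30, Rfc4, -0.42, Pola1, -0.20, and Ccne2, -0.42). The difference passed for 12.

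Many nuclear genes for the translation and energy machinery fell in both settings, where 3.65% of all genes tested were lower with CD200Fc and 12.9% without it. Of 79 cytosolic ribosomal protein genes, 34 fell and 0 rose under CD200Fc, with a median log2 fold change of -0.29, against 42 and 0 without it (-0.27). Rpl37a, a large subunit protein, was at 247, 258 and 292 CPM against 210.4, 197 and 192 CPM, which did not overlap (log2 fold change -0.41, adjusted p = 0.00255, SE 0.073). Of 73 nuclear genes of the respiratory chain, 25 fell and 0 rose, with a median of -0.26, against 43 and 0 without CD200Fc (-0.27). Uqcrb, a complex III subunit, went from 35.4, 35.7 and 40.6 to 27.7, 22.7 and 26.4 CPM (log2 fold change -0.54, adjusted p = 0.00147, SE 0.090), and Ndufv2 of complex I also fell (log2 fold change -0.43, adjusted p = 0.00450). Of 13 genes encoded by the mitochondrial genome, 5 fell and 0 rose, with a median of -0.29, against 1 and 0 without CD200Fc, and the lowest of the 5 was mt-Atp6 (-0.53). No gene of these 3 lists passed the test of the difference. Of 57 replication-dependent histone genes, 7 fell and 0 rose under CD200Fc, with a median of -0.43, against 54 lower without it. The linker histone H1f4 was at 152, 132 and 152 CPM against 102, 98.5 and 96.2 CPM, without overlap (log2 fold change -0.56, adjusted p = 0.000197, SE 0.071).

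Rpl37a was the 1 ribosomal protein gene in the core, with 3 respiratory chain genes, 0 mitochondrially encoded genes and 2 histone genes. Without NG+CD200Fc replicate 3 and HG+CD200Fc replicate 2, the medians were -0.19, -0.16, -0.20 and -0.26 for the 4 lists in that order, and 1 histone gene, H1f4, was the only member called.

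Many of these genes have short transcripts, and the fold changes followed transcript length. Across 14489 genes of at least 1 CPM, which are not independent replicates, the Spearman correlation of the log2 fold change with summed exon length was 0.24 under CD200Fc and 0.18 without it. In genes of 500 to 1000 exonic bases 9.08% fell and 0.413% rose, and above 5000 bases 2.93% fell and 11.1% rose. With the trend over length and GC content removed, 409 genes were higher and 650 lower, and 197 of the 216 core genes still passed, while B2m, Ccl2 and Helz2 were among those that did not. The list medians were then -0.25 for ribosomal proteins (20 lower), -0.21 for the nuclear respiratory chain (11 lower), -0.10 for mitochondrially encoded genes (1 lower) and -0.38 for histones (6 lower). The part of transcript length in these differences was not tested further. The difference between the responses with and without CD200Fc had a Spearman correlation of 0.00501 with length.

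**Figure D4:**
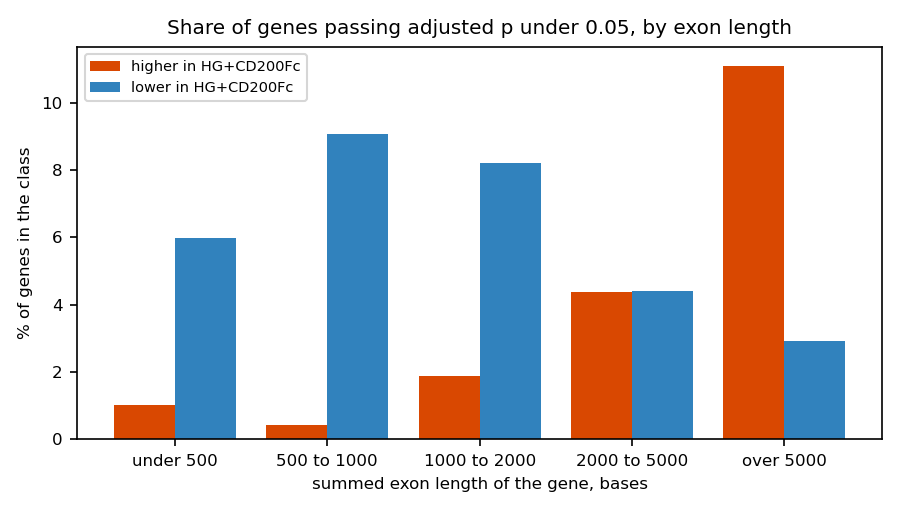
Percentage of genes of at least 1 CPM (y axis, from 0) that passed as higher or lower in HG+CD200Fc, in 5 classes of summed exon length in bases (x axis). Lower genes lead up to 2000 bases and higher genes lead above 5000 bases.

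Lysosomal genes fell more than they rose. Of 47 tested, 15 fell and 3 rose (Atp6v0a1, Gaa and Tfe3) under CD200Fc, with a median of -0.16, against 6 and 15 without it, and the median was -0.17 once the trend over length was removed. Among all genes tested, 3.65% were lower and 4.65% higher under CD200Fc, against 12.9% and 11.7% without it. Ctsd, the acid protease cathepsin D (chromosome 7, 142375911 to 142388038, minus strand), was at 1443, 1428 and 1557 CPM against 1251, 1219 and 1167 CPM, without overlap (log2 fold change -0.28, adjusted p = 0.00450, SE 0.058). Of this list 2 genes are in the core, Ctsd among them, and the median was -0.09 without NG+CD200Fc replicate 3 and HG+CD200Fc replicate 2. The test of the difference passed for 9 of the 47, all with the lower value under CD200Fc. Of 25 genes of disease-associated microglia, 9 fell, among them Spp1 (-0.23), Lgals3 (-0.33) and Fabp5 (-0.28), and Fth1, ferritin heavy chain, rose (0.25). The lists share Ctsb, Ctsd, Ctsl, Cd63 and Cd68.

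No change in the receptor of the agent was detectable at this depth and number of libraries. Cd200r1 was at 11.2, 15.1 and 16.9 CPM in NG+CD200Fc and 12.7, 10.5 and 12.5 CPM in HG+CD200Fc, which overlap, with a log2 fold change of -0.28 (adjusted p = 0.194, SE 0.13). Cd200r4, an activating relative, had a log2 fold change of -0.30 (adjusted p = 0.111, SE 0.12). Of 9 tested receptors and Dok adaptors, Dok3 rose (0.21) and Dok2 fell (-0.24). Cd200 itself had 0 counts in all 12 libraries. Among 19 inhibitory receptors and related genes of myeloid cells, 5 rose (Siglec1, Laptm5, 0.37, Cd72, 0.34, Siglece, 0.32, and Sirpa, 0.19) and 3 fell (Pilra, -0.44, Lilr4b and Lilrb4a, -0.30). In all genes tested the shares were 4.65% higher and 3.65% lower.

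The largest fold changes by the naming rule were in genes of low level, and the 4 given first are outside the core. Ovol1, a zinc finger repressor, was at 0.714, 0.745 and 0.373 CPM against 1.05, 1.74 and 3.71 CPM, without overlap but with a wide spread in HG+CD200Fc (log2 fold change 1.83, adjusted p = 0.00921, SE 0.42). Dgka, a diacylglycerol kinase, was at 0.952, 0.863 and 0.590 CPM against 2.62, 2.03 and 1.24 CPM (log2 fold change 1.31, adjusted p = 0.0115, SE 0.31). At the other end Lrp2, the endocytic receptor megalin, was at 1.82, 1.49 and 2.08 CPM against 0.673, 0.531 and 1.15 CPM (log2 fold change -1.20, adjusted p = 0.0224, SE 0.33), and Il13ra2, the decoy receptor of interleukin 13, at 1.78, 1.92 and 1.80 CPM against 1.16, 0.869 and 0.458 CPM (log2 fold change -1.12, adjusted p = 0.0388, SE 0.34). None of these 4 passed the test of the difference from the response without CD200Fc. Within the core, the highest protein-coding gene named by the rule was Srcin1, an inhibitor of Src, at 4.48, 5.49 and 3.14 CPM against 7.51, 8.94 and 8.62 CPM (log2 fold change 0.94, adjusted p = 0.00233, SE 0.17).

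Across all genes the response under CD200Fc was in part that of cells without it, at a smaller size. Of the 1593 genes called under CD200Fc, 758 were also called without it, 697 in the same direction, which is 43.8% of the first list and 14.8% of the 4720 genes of the second. Over 14506 genes of at least 1 CPM, the fold changes of the comparisons had a Pearson correlation of 0.42 and a Spearman correlation of 0.44, given as a description across genes. The genes called without CD200Fc had a median absolute log2 fold change of 0.37 there and of 0.15 under CD200Fc, and the genes called under CD200Fc had one of 0.31 there and of 0.22 without it. Both pairs favour the comparison that chose the genes. The test of the difference passed for 1381 genes, and 1133 of them had the smaller absolute fold change under CD200Fc. Of these 1381 genes, 745 passed with each of the 12 libraries left out in turn, against 216 of the 1593 genes called under CD200Fc.

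**Figure D5:**
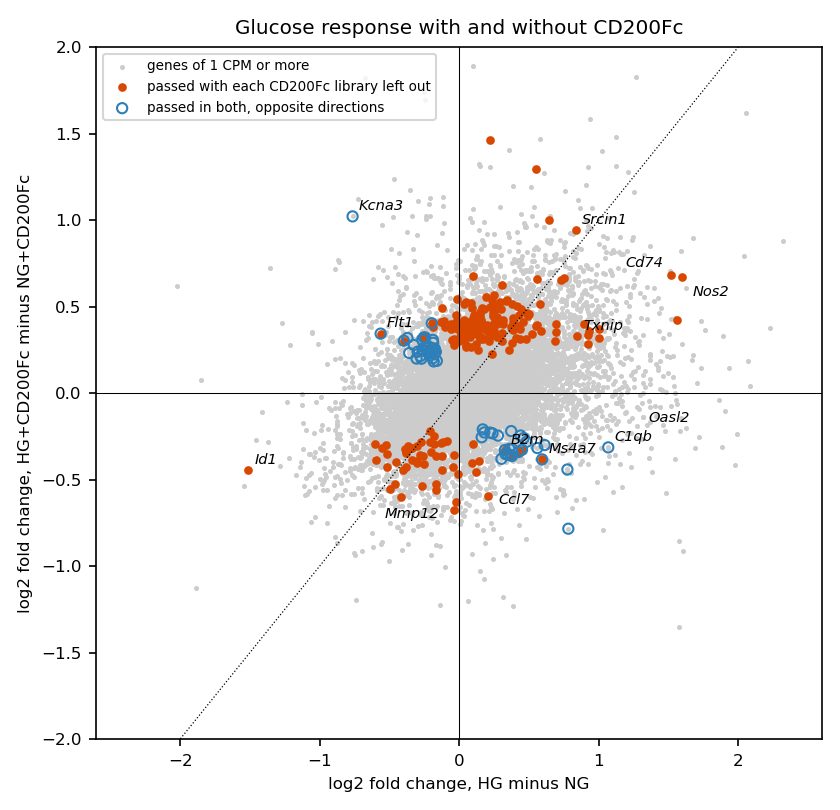
Log2 fold change of HG+CD200Fc against NG+CD200Fc (y axis) and of HG against NG (x axis) for genes of at least 1 CPM. Orange points are the core genes that passed with each CD200Fc library left out, open blue circles the 61 genes that passed in both comparisons with opposite signs, and the dotted line marks equal responses. 14 genes lie outside the axes. Cd74 and Nos2 lie to the right of the dotted line, and Ms4a7, B2m and C1qb lie below 0 on the y axis and above 0 on the x axis.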

How the data were processed

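RNA was measured by sequencing of libraries depleted of ribosomal RNA in 12 libraries, 3 in each of 4 groups. The deposited table holds raw counts per gene; reads were aligned to GRCm38, and STAR, featureCounts and Salmon are named, per the submitters' processing notes. The sources used here state neither the annotation release nor the use of strand in counting, so overlapping and antisense genes cannot be told apart, and reads shared by near-identical genes (histones, MHC class I, Lilr4b and Lilrb4a, ribosomal protein pseudogenes) may be split. Repeated lines (287) were dropped, and 99.53% of the 55487 gene IDs had an entry in GENCODE M21, the source of symbols, positions and exon lengths. Groups came from the treatment label and replicate numbers from the sample titles.

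Genes passing filterByExpr (19182) were tested with edgeR 4.0.16 (R 4.3.3; TMM scaling, quasi-likelihood test, one fit over the 4 groups, Benjamini-Hochberg adjusted p under 0.05). Contrasts were HG+CD200Fc minus NG+CD200Fc, HG minus NG and their difference, and every log2 fold change, SE and adjusted p given is from this fit. CPM are TMM-scaled. Alternatives were DESeq2 size factors, upper quartile scaling, other filters, DESeq2 1.42.0, limma 3.58.1 voom, a replicate block, the 6 CD200Fc libraries alone and each library left out. The removal of the length and GC trend and the joint removal of the deepest and the shallowest CD200Fc library were added after seeing the data. On simulated counts for this comparison over 18707 genes, 22 of 75 genes changed by 1.25-fold, 48 of 64 changed by 1.5-fold and 48 of 61 changed by 2-fold were called, with 8 of 18507 unchanged genes called. The simulated counts were independent between genes, with no trend over length and no effect shared within a library. These rates therefore need not hold for the measured libraries. Named genes were, by rule, the 15 largest fold changes in each direction among genes of at least 1 CPM whose groups did not overlap, up to 4 members with the smallest p in each of 58 lists, the 10 genes with the smallest p for the difference, and Txnip, Arrdc4, Cd200 and Cd200r1. Bub1, Ccl5, Ccne2, Cd53, Cd72, Cd84, Cdc25b, Crebbp, Hipk2, Ifit3, Kdm6b, Lgals3, Nfatc2, Nop58, Nptxr, Pilra, Pola1, Polr1b, Sfpq, Siglece, Sirpa, Spp1, Tmsb4x, Zc3h12a and Znfx1 were named after their values were seen. The comparison and the lists were chosen with earlier results of these data known. Promoters are from RefSeq (GRCm38.p6).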

Additional observations from a re-analysis of the deposited data

Results flagged for a closer look

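The response to high glucose differed with and without CD200Fc, by the test of the difference itself (edgeR quasi-likelihood test, adjusted p under 0.05), in 53 of the genes given with values. Some of them were named by the smallest p of this same test or given for opposite signs in both comparisons. For those genes, passing it is a description. Each value is the log2 fold change with CD200Fc minus that without it. Genes of the interferon response and MHC class I were all on the negative side: Ifit3 (-1.65), Irf7 (-1.12), Oas2 (-0.47), Oasl2 (-1.37), Helz2 (-0.68), Uba7 (-0.74), Znfx1 (-0.57), Ikbke (-0.58), Nlrc5 (-0.49), H2-T24 (-0.63) and B2m (-0.66). So were the glucose-sensing and glycolytic genes Txnip (-0.52), Arrdc4 (-0.74), Slc16a3 (-1.57) and Tpi1 (-0.31).

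The other genes with the lower value under CD200Fc were C1qb (-1.38), C1qc (-0.73), C3 (-0.64), Ccl2 (-0.32), Ccl7 (-0.80), Cd53 (-0.54), Cd74 (-0.84), Cd84 (-0.78), Cfp (-0.77), Fcgr2b (-0.88), Fcgr4 (-0.76), Id2 (-0.46), Lilr4b (-0.74), Lilrb4a (-0.91), Marco (-1.18), Mmp12 (-0.60), Mmp9 (-1.14), Mpeg1 (-1.43), Ms4a7 (-0.98), Nos2 (-0.93), Pilra (-1.22), Siglec1 (-0.30) and Tmsb4x (-0.57).

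The genes with the higher value under CD200Fc were Cad (0.60), Cdt1 (0.48), Crebbp (0.48), Cx3cr1 (2.08), Fasn (0.45), Flt1 (0.91), Foxm1 (0.33), Id1 (1.07), Igf1 (0.31), Kcna3 (1.79), Kdm6b (0.56), Nptxr (0.60), Pprc1 (0.38), Sfpq (0.58) and Slc7a5 (0.70). Cx3cr1 was at a low level in all libraries, and its libraries did not overlap between NG+CD200Fc and HG+CD200Fc although that comparison did not pass. The differences of Ccl2, Crebbp, Foxm1, Id2, Kdm6b, Siglec1 and Tpi1 did not pass under every omission of a single library.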

How the results depend on the processing

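The count of 1593 genes under CD200Fc ranged from 277 (without HG+CD200Fc replicate 2) to 2288 (without NG+CD200Fc replicate 2) when single libraries were left out. It was 2597 with limma voom, 1059 once fold changes were corrected for length and GC, and 10 without NG+CD200Fc replicate 3 and HG+CD200Fc replicate 2, where 2078 genes had an unadjusted p under 0.05. The count also rose, to 1793, without HG+CD200Fc replicate 1, so leaving out a library did not always lower it. On the first principal component of the CD200Fc libraries (39.13% of their variance), NG+CD200Fc replicate 3 (-16.4) and HG+CD200Fc replicate 2 (13.4) lay furthest apart. NG+CD200Fc replicates 1 and 2 lay at -9.3 and -2.7, and HG+CD200Fc replicates 1 and 3 at 5.8 and 9.1. The cause of the dependence on single libraries was not tested. The difference between the responses passed for 1381 genes, for 974 to 1505 with single libraries left out and for 896 without both. Without CD200Fc the range was 3326 to 5045. Upper quartile scaling gave 1115 higher and 494 lower genes beside 892 and 701, and no filter gave 954 and 1027. The deviations of same-numbered NG+CD200Fc and HG+CD200Fc libraries from their group means had correlations of 0.04, 0.17 and 0.02. Those of differently numbered libraries ran from -0.17 to 0.14. These values do not settle whether replicate numbers pair the libraries. With the replicate number as a block, 2314 genes passed under CD200Fc and 1723 for the difference. For the 109 genes given with values, 2006 of 2393 fold changes under the alternatives stayed on the same side of the threshold. Another 376 no longer passed, 11 passed only there, and 0 that passed changed sign. For values that passed neither in the main fit nor in the alternative, the direction was not compared. For the 53 with a difference that passed, 1064 of 1113 stayed past the threshold. At this depth the median SE of a log2 fold change was 0.058 at 100 CPM or more and 0.58 under 1 CPM.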

Other observations

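Of all 14506 genes of at least 1 CPM, 6.01% rose and 4.77% fell under CD200Fc, and on the X chromosome more fell than rose. Of 490 genes, 47 fell and 7 rose, with a median log2 fold change of -0.09 (-0.06 with the length and GC trend removed, and -0.05 without CD200Fc). Chromosome 13 had 47 of 586 lower and 14 higher, and the largest shares of higher genes were on chromosome 11 (109 of 1133, 9.62%, with 50 lower) and chromosome 17 (68 of 730, 9.31%, with 21 lower).

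By annotation class, 1.98% of 2020 tested long noncoding RNA genes passed (36 higher and 4 lower) and 3.78% of 2965 pseudogenes (20 higher and 92 lower), beside 8.30% over all genes tested. The median SE of the log2 fold change was 0.43 and 0.37 in these classes, against 0.093 in protein-coding genes. The median log2 fold changes were 0.20, -0.14 and -0.01. The shares that passed are therefore no measure of the size of the response. Of 34 tested genes of amino acid supply and the integrated stress response, 4 rose (Slc7a5, Slc1a5 and Slc6a9, which carry amino acids, and Cebpb, a transcription factor) and 0 fell. Over all genes tested, 4.65% were higher and 3.65% lower. The core held 2 of the 4, and 0 passed without NG+CD200Fc replicate 3 and HG+CD200Fc replicate 2. Without CD200Fc 4 members were higher and 15 lower, beside 11.7% and 12.9% of all genes. Of 15 Fc receptor pathway genes, Syk, the kinase that relays their signal, rose, and Fcgr2b, Fcgr4 and the shared signalling chain Fcer1g fell under CD200Fc (4.65% of all genes were higher and 3.65% lower). None of 27 immediate early and AP-1 genes passed edgeR's test, where 8 had an unadjusted p under 0.05, and DESeq2 called 2 and limma voom 4.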
